A study of Mus musculus with 6 samples.

Results

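Astrocyte identity genes are a set of 8 genes, Gfap, Aqp4, Aldh1l1, S100b, Gja1, Gjb6, Aldoc and Sox9, that are used to recognise astrocytes in brain tissue. They were found by gene symbol, and all 8 were present once among the 23282 entries of the count tables. The tables came from forebrain RNA of C57BL/6J male mice of 8 to 10 weeks, 1 hemisphere and 1 library per mouse, with the olfactory bulbs and cerebellum removed. In the group labelled water avoidance stress (WAS, n = 3), each mouse stood for 1 h on a small platform surrounded by water. In the group labelled control (n = 3), the mice stood for 1 h on the same platform in a container without water, and the labels name no genetic change or drug for either group. Tissue was taken at the end of the hour. The comparison asked whether brief psychological stress is accompanied by a different level of RNA in the brain, here of the RNAs that mark astrocytes.

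Astrocytes are the glial cells that take up glutamate and potassium after synaptic activity, supply neurons with fuel, and cover blood vessels with processes called endfeet. Aqp4, the water channel, is concentrated in the endfeet, while the connexins encoded by Gja1 and Gjb6 form the gap junctions that join astrocytes into a network. Gfap encodes the intermediate filament of astrocytes and is used as a sign of reactive change, and it is richer in white matter and at brain surfaces than in cortical grey matter. Several of these genes are not private to astrocytes: S100b is also made by oligodendrocytes, Gja1 and Gjb6 by cells of the meninges, and Sox9 by ependymal cells.

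The column headings left a doubt that bears on every direction. The count column was headed WC in the 3 libraries labelled WAS and WS in the 3 libraries labelled control, and neither abbreviation is defined in the sources used here. Groups were taken from the labels, and with the labels exchanged every direction given here would be the opposite one. For P2ry1, a purinergic receptor gene, the study lists lower RNA under stress, whereas the libraries labelled WAS were higher here. Whether the labels are exchanged was not tested. Libraries held between 9248520 and 10502029 counts. The number of calls rested on WAS replicate 2: without it, 484 of 15239 genes passed an adjusted p of 0.05 by edgeR's quasi-likelihood test, against 0 with all 6 libraries. For the 8 genes, values without that library are given where it changed a call. In bulk tissue, more cells of a type and more RNA per cell cannot be told apart.

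Levels are given as CPM, the count of a gene divided by the library total and multiplied by the same constant in every library. The fold changes come from edgeR's quasi-likelihood test after TMM scaling, with p-values adjusted by the Benjamini-Hochberg method over all 15239 genes tested. All 8 genes passed the filter on low counts. No one of them had an adjusted p under 0.05 (lowest 0.514, S100b), and 3 of 8 had an unadjusted p under 0.05, S100b, Aqp4 and Aldoc, each higher in the libraries labelled WAS. Over all genes tested, 1104 or 7.24% had an unadjusted p under 0.05, 3.85% in the higher and 3.4% in the lower direction, and 0 passed an adjusted p of 0.05 by edgeR or by limma and 22 by DESeq2, none of the 22 being among the 8 genes. The criteria of the study, a fold change of at least 1.5 with an unadjusted p under 0.05, were met by 0 of the 8 genes and by 2.49% of all genes tested, 1.82% in the higher and 0.676% in the lower direction. The log2 fold change was above 0 for 7 of the 8 genes, with a median of 0.27, where the median over all genes tested was 0.00088 and 50.2% were above 0. The 8 genes were chosen with earlier results of these data known, so this comparison is a description and no test.

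**Figure D1:**
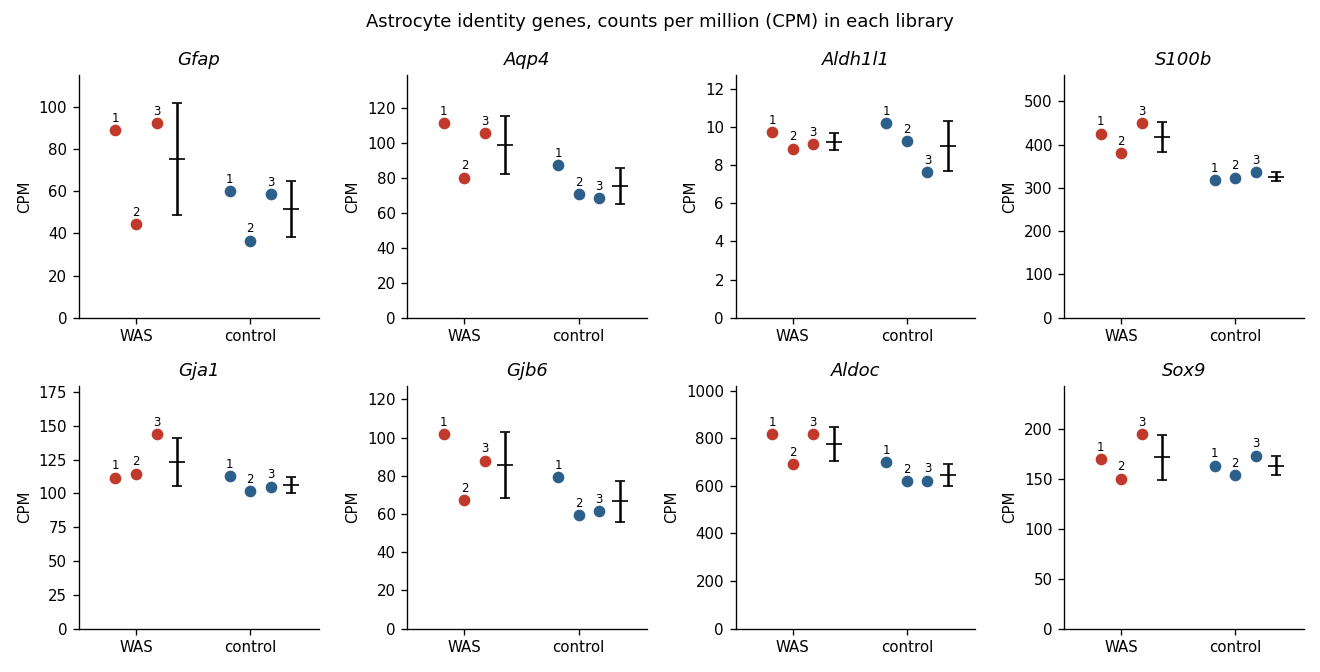
Level of each astrocyte identity gene in CPM (vertical axes, starting at 0) in the libraries labelled WAS (red) and control (blue), with replicate numbers above the points and a black bar for mean ± SD (n = 3). S100b is the gene whose groups do not overlap, and for Gfap, Aqp4, Gjb6 and Aldoc the points of WAS replicates 1 and 3 lie above all the others.

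S100b (chr10:76253853-76261159, plus strand of GRCm38), which encodes a calcium-binding protein that astrocytes also secrete, gave the smallest p of the set. Its level was 425, 380 and 449 CPM in WAS replicates 1, 2 and 3, compared with 317, 324 and 337 CPM in control replicates 1, 2 and 3. The lowest library labelled WAS lay above the highest control library, a separation in the higher direction that 8.42% of all genes tested showed, where 3.76% showed one in the lower direction. The means were 418 ± 34.7 CPM (SD, n = 3) against 326 ± 9.89 CPM (SD, n = 3), and the log2 fold change was 0.32 (standard error 0.086, unadjusted p = 0.00324, adjusted p = 0.514, edgeR quasi-likelihood). An unadjusted p under 0.05 was kept in all 13 alternative analyses, from 0.000428 to 0.0207 over the edgeR, DESeq2 and limma fits. Leaving out any single library gave values from 0.27 to 0.39 on the log2 scale, and without WAS replicate 2 the adjusted p was 0.0211 in edgeR. Other members of the S100 family were at both signs: among the 9 tested, 4 were above 0 on the log2 scale and 0 had an unadjusted p under 0.05, with a median of -0.012. The deposited counts are not stated to use strand, and in the GENCODE M21 annotation the last 500 bases of S100b overlap Dip2a on the opposite strand, so reads of the pair could be mixed.

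Aldoc (chr11:78322968-78327781, plus strand), the gene of the brain aldolase isozyme of glycolysis, was read at 816, 692 and 817 CPM in WAS replicates 1, 2 and 3, compared with 699, 619 and 622 CPM in control replicates 1, 2 and 3. WAS replicate 2 lay just below control replicate 1, so the groups overlapped by this pair. The means were 775 ± 72.0 CPM (SD, n = 3) and 647 ± 45.4 CPM (SD, n = 3), which gave 0.22 on the log2 scale (standard error 0.089, unadjusted p = 0.0283, adjusted p = 0.634, edgeR quasi-likelihood). The ubiquitous isozyme gene Aldoa was at -0.040 (standard error 0.077, edgeR quasi-likelihood adjusted p = 0.960). No stretch of 50 bases in the last 500 bases of the longest Aldoc transcript was found in a transcript of another gene.

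S100b and Aldoc had an unadjusted p under 0.05, while Gfap and Gjb6 had larger fold changes without one. The sequence before the annotated start of these 4 genes is shown, so that the letters they share or do not share can be seen. The split rests on a threshold in these same data, which Gjb6 missed at an unadjusted p of 0.0519 by edgeR's quasi-likelihood test. No contrast between called and uncalled genes can be drawn from it. The RefSeq promoter table on GRCm38.p6 held windows for 6 of the 8 genes, and the missing entries were Aqp4 and Sox9. Each line below runs 5′ to 3′ on the strand of the gene and ends at the base before the annotated start, or, for the first of the 2 starts of Aldoc, before the first exon base of GENCODE M21. Capitals mark TTGGCA, the half-site of the nuclear factor I family, a group of transcription factors that act in glial development.
S100b, chr10:76253586-76253835, plus strand: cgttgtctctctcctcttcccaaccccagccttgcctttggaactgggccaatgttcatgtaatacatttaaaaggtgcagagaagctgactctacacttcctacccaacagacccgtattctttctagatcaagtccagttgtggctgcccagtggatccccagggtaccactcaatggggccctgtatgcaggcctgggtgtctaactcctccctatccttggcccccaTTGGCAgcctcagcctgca
Aldoc, chr11:78322823-78322967, plus strand: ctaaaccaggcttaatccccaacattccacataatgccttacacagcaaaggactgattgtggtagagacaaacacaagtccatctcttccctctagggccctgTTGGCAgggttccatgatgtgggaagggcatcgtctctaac
Gfap, chr11:102897201-102897450, minus strand: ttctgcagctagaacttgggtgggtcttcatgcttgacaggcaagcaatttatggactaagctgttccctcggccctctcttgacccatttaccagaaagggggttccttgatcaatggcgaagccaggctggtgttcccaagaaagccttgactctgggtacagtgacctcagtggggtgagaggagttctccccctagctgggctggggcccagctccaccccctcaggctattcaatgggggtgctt
Gjb6, chr14:57133612-57133861, minus strand: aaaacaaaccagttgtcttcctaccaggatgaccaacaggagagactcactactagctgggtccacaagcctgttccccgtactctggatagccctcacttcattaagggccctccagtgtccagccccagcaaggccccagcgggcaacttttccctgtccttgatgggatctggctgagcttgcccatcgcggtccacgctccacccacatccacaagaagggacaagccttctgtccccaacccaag
TTGGCA was found once in the S100b line and once in the Aldoc line, 19 and 146 bases before the start, and was absent from the Gfap and Gjb6 lines on either strand. Over 32851 promoter windows of 250 bases, 12.3% held it on at least 1 strand. Of the 7 windows of the 6 genes, 2 held it, and those of Gja1, Aldh1l1 and the second Aldoc start did not. A further 4 motifs were searched on both strands in the full windows of the 6 genes, ACAAAG (SOX core, 16.5% of all windows), TATAAA (the core promoter box named after it, 12.4%), AGAACA (glucocorticoid half-site, 16.1%) and TGACGTCA (CRE, 1.55%), and none of them was found in any. TTCNNNGAA (STAT, 7.02% of all windows) was found in the window of the second Aldoc start alone, and GGGCGG (GC box, 32.7%) in the windows of Aldh1l1 and of the first Aldoc start. The matches describe letters only and were not tied to any measured binding.

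Gfap (chr11:102887336-102900912, minus strand) had the largest fold change of the set and also the widest spread. Its level was 89.0, 44.5 and 92.3 CPM in WAS replicates 1, 2 and 3, compared with 60.2, 36.5 and 58.5 CPM in control replicates 1, 2 and 3. WAS replicates 1 and 3 lay above every control library, whereas WAS replicate 2 lay below 2 of the 3. The means were 75.3 ± 26.7 CPM (SD, n = 3) against 51.7 ± 13.2 CPM (SD, n = 3), and the log2 fold change of 0.51 (standard error 0.25) had an unadjusted p of 0.0679 and an adjusted p of 0.710 by edgeR's quasi-likelihood test. Without WAS replicate 2 the log2 fold change was 0.77 with an unadjusted p of 0.000288 and an adjusted p of 0.0162 by edgeR's quasi-likelihood test, and this was the one analysis in which a gene of the set met the criteria of the study. Without WAS replicate 3 it was 0.33, without WAS replicate 1 it was 0.37, and without control replicate 2 it was 0.31. The coefficient of variation between mice was 35.4% in the libraries labelled WAS and 25.5% in those labelled control, which was 8.94 and 6.45 times the counting error of 3.96%. The last 500 bases of Gfap overlap Gm26668 on the opposite strand in GENCODE M21.

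Aqp4, the water channel of the endfeet, was read at 111, 80.1 and 105 CPM in WAS replicates 1, 2 and 3, compared with 87.2, 70.6 and 68.5 CPM in control replicates 1, 2 and 3. WAS replicates 1 and 3 lay above all control libraries and WAS replicate 2 fell between control replicates 1 and 2. On the log2 scale the difference was 0.36 (standard error 0.13, unadjusted p = 0.0201, adjusted p = 0.622, edgeR quasi-likelihood), and the means were 98.9 ± 16.5 CPM (SD, n = 3) and 75.4 ± 10.3 CPM (SD, n = 3). Without WAS replicate 2 it was 0.49, with an adjusted p of 0.0250 in edgeR. The unadjusted p of Aqp4 was under 0.05 in 8 of 13 alternative analyses. For both Aqp4 and Aldoc it was over 0.05 with limma and without WAS replicate 1, WAS replicate 3, control replicate 2 or control replicate 3, up to 0.0813 for Aqp4 and 0.109 for Aldoc.

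Gjb6 (chr14:57123303-57133611, minus strand), the gene of another astrocytic connexin, followed Aqp4 closely from library to library. Its level was 102, 67.3 and 87.9 CPM in WAS replicates 1, 2 and 3, compared with 79.1, 59.4 and 61.4 CPM in control replicates 1, 2 and 3. The log2 fold change was 0.33 (standard error 0.15), with an unadjusted p of 0.0519 and an adjusted p of 0.688 by edgeR's quasi-likelihood test, and its unadjusted p was under 0.05 in 7 of 13 alternative analyses. Without WAS replicate 2 it was 0.47, with an unadjusted p of 0.00183 and an adjusted p of 0.0541 in edgeR, and without WAS replicate 1 it was 0.18, with an unadjusted p of 0.232. The ratio of Aqp4 to Gjb6 counts lay between 1.09 and 1.20 in the 6 libraries, a range of 1.10 times from lowest to highest.

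Gja1 (chr10:56377330-56402513, plus strand), the gene of the most studied astrocytic connexin, did not share that profile. It was read at 112, 115 and 144 CPM in WAS replicates 1, 2 and 3, compared with 113, 102 and 105 CPM in control replicates 1, 2 and 3, so that WAS replicate 3 stood above the other 5 libraries and WAS replicate 1 lay within the control range. The fold change on the log2 scale was 0.18 (standard error 0.11, unadjusted p = 0.126, adjusted p = 0.783, edgeR quasi-likelihood), and it was 0.050 without WAS replicate 3. The ratio of Gjb6 to Gja1 counts was 0.911 in WAS replicate 1, and it lay between 0.585 and 0.701 in the other 5 libraries. Gjb2, which encodes a connexin and is made by astrocytes and meningeal cells, had 46, 62 and 96 counts in WAS replicates 1, 2 and 3, compared with 54, 43 and 46 counts in control replicates 1, 2 and 3, again with the highest value in WAS replicate 3 (log2 fold change 0.55, standard error 0.29, edgeR quasi-likelihood adjusted p = 0.730).

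Sox9 (chr11:112782224-112787760, plus strand), a transcription factor present in the nuclei of most astrocytes, was at 170, 150 and 195 CPM in WAS replicates 1, 2 and 3, compared with 163, 154 and 173 CPM in control replicates 1, 2 and 3. Both the highest and the lowest library carried the WAS label. The log2 fold change was 0.034 (standard error 0.10, edgeR quasi-likelihood adjusted p = 0.969). Aldh1l1 (chr6:90486427-90600203, plus strand), the folate enzyme whose promoter is widely used to label astrocytes, had the fewest counts, from 76 to 107 per library. Its level was 9.73, 8.87 and 9.11 CPM in WAS replicates 1, 2 and 3, compared with 10.2, 9.25 and 7.62 CPM in control replicates 1, 2 and 3, and the libraries labelled WAS lay inside the control range. The log2 fold change was -0.0013 (standard error 0.19, edgeR quasi-likelihood adjusted p = 0.999), and its counting error of 10.4% was the largest of the set. At that depth a difference of the size seen for S100b would lie within 2 standard errors. The end of Aldh1l1 shares sequence with Gm15756 on the opposite strand, so its counts are uncertain.

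**Figure D2:**
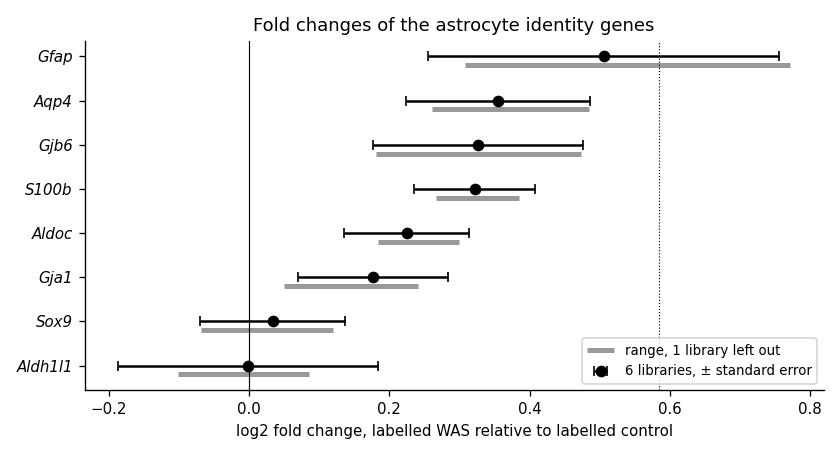
Log2 fold change of each astrocyte identity gene in the libraries labelled WAS relative to control (horizontal axis), as points with the standard error of edgeR's quasi-likelihood fit and grey bars for the range with 1 library left out. The dotted line marks a fold change of 1.5, and the grey bar of Gfap, up to 0.77, is the one that crosses it, while the bars of Sox9 and Aldh1l1 lie on both sides of 0.

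The 8 genes did not vary as one. The 6 libraries spanned a factor of 2.53 from lowest to highest for Gfap, 1.71 for Gjb6, 1.62 for Aqp4, 1.42 for Gja1, 1.41 for S100b, 1.34 for Aldh1l1, 1.32 for Aldoc and 1.30 for Sox9. WAS replicate 3 was the highest library for 5 of the 8 genes and WAS replicate 1 for 2, Aqp4 and Gjb6. Control replicate 2 was the lowest library for 4 genes, Gfap, Gja1, Gjb6 and Aldoc. After each gene was centred on its own mean on the log2 scale, the root mean square difference between 2 genes over the 6 libraries was smallest for Aqp4 and Gjb6, at 0.057. It was 0.095 for S100b and Aldoc, and it was largest, at 0.48, for Gfap and Aldh1l1. These differences describe 6 libraries that share 2 groups and are no test. Counts of Gfap per count of Sox9 ranged from 0.238 in control replicate 2 to 0.525 in WAS replicate 1, a factor of 2.21 between 2 genes that mark the same cell type. WAS replicate 2 and control replicate 2 had the lowest ratios, 0.297 and 0.238, and the other 4 libraries lay between 0.338 and 0.525.

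**Figure D3:**
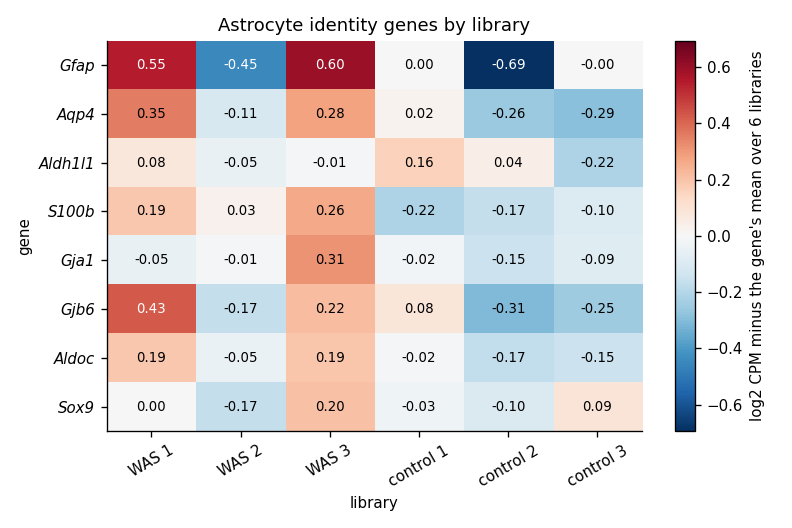
Heat map of log2 CPM after TMM scaling, minus the mean of each gene over the 6 libraries (colour and printed value), with libraries in columns and the astrocyte identity genes in rows. WAS replicates 1 and 3 are above the mean for Gfap, Aqp4, S100b, Gjb6 and Aldoc, and control replicate 2 is lowest for Gfap.

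The 8 genes together held 0.183%, 0.154% and 0.190% of the counts in WAS replicates 1, 2 and 3, compared with 0.153%, 0.137% and 0.143% for the control replicates. As summed CPM this was 1757 ± 193 (SD, n = 3) against 1445 ± 78.6 (SD, n = 3). The lowest library labelled WAS, replicate 2 at 1538, exceeded the highest control library, replicate 1 at 1529, by less than 1 SD of either group. With totals that left out Rn45s, the 45S ribosomal RNA entry, the same libraries were at 1618 and 1621 and the groups overlapped, as they did with TMM-scaled totals (1520 and 1528), a scaling chosen after seeing the data. Aldoc supplied between 43.0% and 45.7% of these counts. For the 6 genes other than Aldoc and S100b, the sum was 593, 465 and 633 CPM in the libraries labelled WAS and 513, 431 and 474 CPM in the control libraries, and the groups overlapped.

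For each of the 8 genes, the genes with the most similar level profile were looked for among 9409 others, members of the set included, with a mean of at least 100 counts (9410 for Aldh1l1). Neurod1, a neuronal transcription factor, was nearest to both Aqp4 and Gjb6, with root mean square differences of 0.048 and 0.046. Its level was 37.3, 26.1 and 35.7 CPM in the libraries labelled WAS and 31.3, 23.7 and 24.2 CPM in the control libraries. Bcas1, a gene of myelinating oligodendrocytes, was nearest to Aldoc (0.015), Sepp1 to Gja1 (0.034), Mpzl1 to S100b (0.040), Uhrf2 to Sox9 (0.032) and Pcnxl3 to Aldh1l1 (0.033). For Gfap no gene came closer than Slit1, at 0.14, with 24.4, 10.5 and 18.9 CPM in WAS replicates 1, 2 and 3, compared with 13.2, 8.77 and 12.1 CPM in control replicates 1, 2 and 3. Likeness over 6 libraries says nothing about the cell type that made the RNA.

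The wider astrocyte programme was described with 154 other genes in 12 lists ordered by role, of which 148 were tested. An unadjusted p under 0.05 was reached by 28 of them, 24 of them higher and 4 lower under the WAS label, or 18.9% of those tested beside 7.24% of all genes. The lists were chosen with earlier results of these data known, so these shares are a description and no test. After adjustment over all genes, 0 of the 148 had a p under 0.05 by edgeR or limma and 1 by DESeq2. The median log2 fold change was 0.072, with 95 above 0 and 53 below, and it ran from 0.039 without control replicate 2 and 0.046 without WAS replicate 3 to 0.11 without WAS replicate 2 or with total-count scaling. Of the 28 genes, 9 kept an unadjusted p under 0.05 with any single library left out, among them Slc6a11, Agt, Unc13c, P2ry1, Ntsr2, Aldh1a1, Adra1b and Chrdl1. Without WAS replicate 2 the number with an unadjusted p under 0.05 was 49, without WAS replicate 3 it was 16 and without control replicate 2 it was 11, while the share of all genes was 13.7%, 4.27% and 4.09%. In the analysis without WAS replicate 2, 15 of the other astrocyte genes had an adjusted p under 0.05 in edgeR, among them Slc6a11 (3.61e-05), Aldh1a1 (0.00153), Sparc (0.00193), Pygm (0.00367) and Chrdl1 (0.0248), and the unadjusted p of Adrb1 was then 0.107. Among the 28 genes, the highest library was WAS replicate 1 for 13 and WAS replicate 3 for 11, and the lowest was control replicate 2 for 15.

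**Figure D4:**
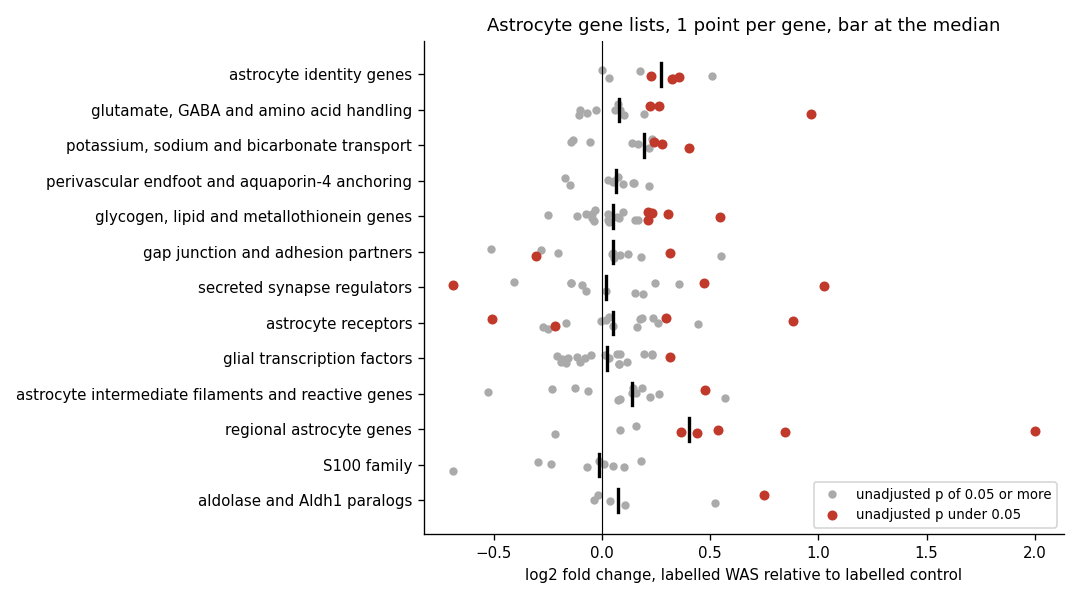
Log2 fold change, labelled WAS relative to labelled control, of every tested gene in the astrocyte identity set and in 12 other astrocyte lists (rows), with red points for an unadjusted p under 0.05 and a black bar at the median of each list. The medians are 0.27 for the identity genes and 0.40 for the regional list, and -0.012 for the S100 family.

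In the list of glutamate, GABA and amino acid handling, 3 of 12 genes had an unadjusted p under 0.05, all higher. Slc6a11, the GABA transporter GAT3 of astrocytes, was at 255, 112 and 221 CPM in WAS replicates 1, 2 and 3, compared with 99.8, 83.7 and 110 CPM in control replicates 1, 2 and 3, 0.96 higher on the log2 scale (standard error 0.23, edgeR quasi-likelihood adjusted p = 0.477). On the log2 scale Glud1, glutamate dehydrogenase, was at 0.22 (standard error 0.078) and Slc7a11, the cystine and glutamate exchanger, at 0.26 (standard error 0.12), or 0.13 without WAS replicate 3. The main glutamate transporter genes were at -0.10 (standard error 0.071) for Slc1a2 and -0.11 (standard error 0.090) for Slc1a3, with unadjusted p of 0.179 and 0.262 by edgeR, and Glul, glutamine synthetase, was at 0.058 (standard error 0.079).

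Among genes of potassium, sodium and bicarbonate transport, 3 of 10 had an unadjusted p under 0.05, all higher, and the median was 0.19. They included Slc4a4, the sodium bicarbonate cotransporter (log2 fold change 0.24, standard error 0.090), and Kcnj16, an inward rectifier channel subunit (0.40, standard error 0.18, or 0.22 without WAS replicate 1). Among the 10 tested genes of the endfoot and of aquaporin-4 anchoring, which include Dag1 of the dystrophin complex, 0 had an unadjusted p under 0.05, and the values ran from -0.17 to 0.22 with a median of 0.063. Sntb1 had 0 counts in every library and was not tested, which allows up to 3 counts in each and covers counting error only.

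Of 20 genes of glycogen, lipids and metallothioneins, 5 had an unadjusted p under 0.05, all higher. They were the glycogen phosphorylases Pygm (0.55, standard error 0.19) and Pygb (0.31, standard error 0.12), the glycogen-targeting subunit Ppp1r3c (0.21, standard error 0.093), and the metallothioneins Mt1 (0.21, standard error 0.087) and Mt2 (0.23, standard error 0.10). Without WAS replicate 1, Pygm was at 0.36, Pygb at 0.18 and Mt2 at 0.12, each with an unadjusted p over 0.05. Apoe, the lipid carrier, was at 0.16 (standard error 0.097). In the list of junction and adhesion partners, 2 of 12 had an unadjusted p under 0.05, 1 in each direction. The scaffold gene Tjp1 was lower, with 32.4, 37.7 and 35.4 CPM in the libraries labelled WAS and 41.9, 44.4 and 40.7 CPM in the control libraries. The groups did not overlap, and the log2 fold change was -0.31 (standard error 0.10, edgeR quasi-likelihood adjusted p = 0.585).

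Among astrocyte receptors, 4 of 17 genes had an unadjusted p under 0.05. P2ry1, a purinergic receptor, and Ntsr2, the astrocytic neurotensin receptor, were higher under the WAS label (0.88, standard error 0.25, and 0.30, standard error 0.093). The adrenergic receptor genes Adra1b and Adrb1 were lower (-0.51, standard error 0.16, and -0.22, standard error 0.088). The study lists P2ry1 in the opposite direction, as lower under stress. Of 13 secreted synapse regulators, Sparc and Lcat were higher and Chrdl1, a factor of synapse maturation, was lower (-0.69, standard error 0.23). Of 20 glial transcription factors, 1 had an unadjusted p under 0.05, Id1 at 0.31 (standard error 0.13), and the median was 0.023. Of the aldolase and aldehyde dehydrogenase paralogs, Aldh1a1, an enzyme of retinoic acid synthesis, alone had an unadjusted p under 0.05 (0.75, standard error 0.23).

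Genes of reactive astrocytes were looked at because Gfap is itself read as a sign of reactivity. Of 19 listed, 14 were tested, and Lcn2, Steap4, Timp1, Cxcl10 and C3 were left out by the filter with at most 7 counts in any library. Among the 14, 1 had an unadjusted p under 0.05, Serping1 at 0.48 (standard error 0.17), the C1 inhibitor gene, and the median was 0.14. Vim, the second intermediate filament gene of reactive astrocytes, was read with 363, 440 and 578 counts in WAS replicates 1, 2 and 3, compared with 390, 374 and 480 counts in control replicates 1, 2 and 3 (log2 fold change 0.19, standard error 0.17), and its order over the libraries was not that of Gfap. Serpina3n, an acute phase gene, was at 0.085 (standard error 0.36).

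A list of genes whose level depends on brain region was read in the same libraries. Of 8 regional genes, 5 had an unadjusted p under 0.05, all higher in the libraries labelled WAS, and the median log2 fold change was 0.40. Agt, angiotensinogen, is made by astrocytes of the diencephalon and brainstem and little by those of the cortex. Its level was 39.4, 12.4 and 46.9 CPM in WAS replicates 1, 2 and 3, compared with 9.43, 3.37 and 11.3 CPM in control replicates 1, 2 and 3, which gave 2.00 on the log2 scale (standard error 0.46, edgeR quasi-likelihood adjusted p = 0.477). Sparc, a matrix protein gene, was at 518, 185 and 475 CPM against 184, 119 and 260 CPM, and Itih3 at 22.4, 11.5 and 19.1 CPM against 7.14, 7.80 and 13.8 CPM. In Agt, Slc6a11, Sparc and Itih3, as in Gfap, WAS replicates 1 and 3 were the highest libraries and WAS replicate 2 lay near the control libraries. Unc13c, which encodes a synaptic vesicle priming protein and is strong in the cerebellum, did not overlap between groups, with 85.8, 102 and 103 CPM against 64.7, 61.7 and 69.3 CPM (log2 fold change 0.53, standard error 0.10). Lhx2, a transcription factor gene of the telencephalon, was at 0.084 (standard error 0.12). The part of regional composition of the tissue in the values of the 8 genes was not tested.

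**Figure D5:**
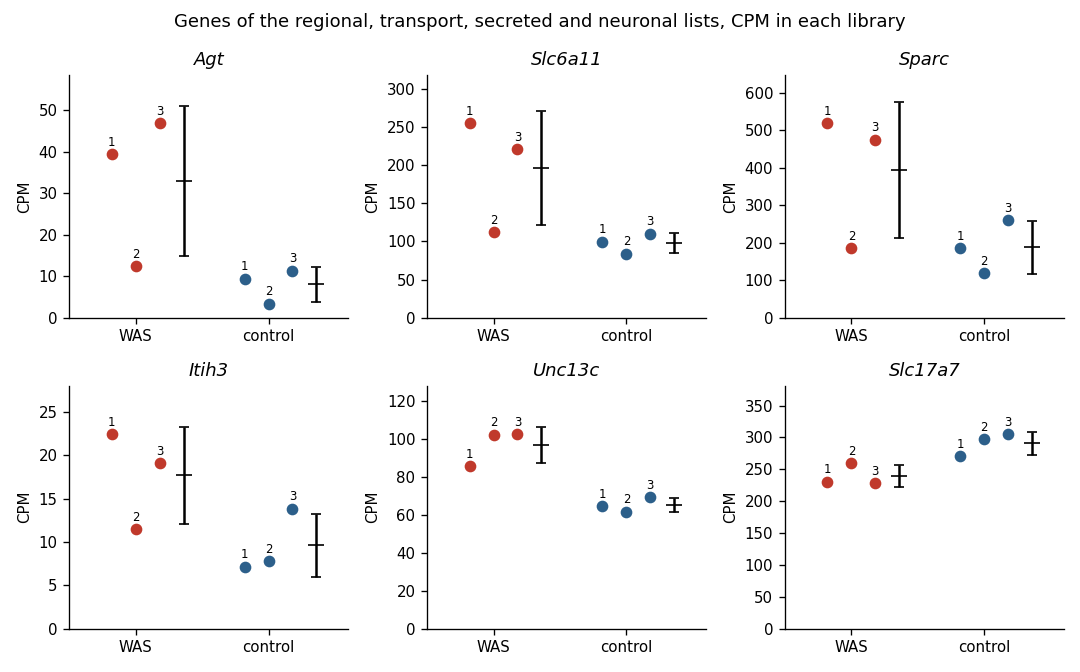
Level in CPM (vertical axes, starting at 0) of Agt, Slc6a11, Sparc and Itih3, of Unc13c from the regional list and of the neuronal marker Slc17a7, in each library labelled WAS (red) or control (blue), with replicate numbers and mean ± SD (n = 3). For the first 4 genes WAS replicates 1 and 3 lie apart from WAS replicate 2, and the Slc17a7 points labelled WAS, at 229 to 260 CPM, lie below the control points at 271 to 305 CPM.

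Markers of other cell types that make some of the same RNAs were read in the same libraries. The 9 neuronal genes summed to between 5625 and 6177 CPM in the libraries labelled WAS and between 6381 and 6910 CPM in the control libraries, without overlap. Of the 9, 3 had an unadjusted p under 0.05, Slc17a7 (-0.32), Rbfox3 (-0.36) and Syt1 (-0.24), 7 were below 0 on the log2 scale with a median of -0.055, and Nefl (0.12) and Gad2 (0.11) were above it. For oligodendrocytes, which also make S100b, 9 genes summed to 5757 to 7824 CPM and 6029 to 7066 CPM, with WAS replicate 1 the lowest and WAS replicate 3 the highest, and 0 of 9 had an unadjusted p under 0.05. For meningeal fibroblasts the sums of 9 genes were 218 to 276 CPM and 145 to 211 CPM, without overlap, all 9 had a log2 fold change above 0, and Dcn (1.22), Mgp (0.36) and Slc6a13 (0.72) had an unadjusted p under 0.05. Without WAS replicate 2, Dcn had an adjusted p of 0.000144 and Slc6a13 an unadjusted p of 0.0641 in edgeR. Markers of ependyma (8 genes, 17.0 to 34.7 CPM and 15.5 to 32.4 CPM), choroid plexus (9 genes, 62.5 to 1213 CPM and 18.01 to 1259 CPM), microglia (9 genes, 318 to 384 CPM and 337 to 383 CPM), endothelium (8 genes, 192 to 214 CPM and 200 to 222 CPM), oligodendrocyte precursors (6 genes, 198 to 231 CPM and 172 to 209 CPM) and blood (5 genes, 1308 to 2208 CPM and 1192 to 1567 CPM) overlapped between the groups, and none of their genes had an unadjusted p under 0.05. Every gene of these lists had counts in at least 1 library. The choroid plexus sum was low in 1 library of each group, WAS replicate 1 (62.5 CPM) and control replicate 2 (18.01 CPM). It was 1213 and 946 CPM in WAS replicates 2 and 3, and 1259 and 962 CPM in control replicates 1 and 3. Of these libraries, WAS replicate 1 was the highest for Aqp4 and Gjb6, and WAS replicate 3 for 5 of the 8 genes. Control replicate 2 was the lowest for Gfap, Gja1, Gjb6 and Aldoc. The reason for the low sums was not tested. The cerebellum had been removed, and whether counts of the 5 cerebellar genes came from it was not tested. Those genes summed to 35.4 to 40.6 CPM and 25.3 to 36.7 CPM. One of them, Cbln1, had 170, 64 and 120 counts under the WAS label against 79, 30 and 66 (log2 fold change 1.04, standard error 0.36, unadjusted p = 0.0156 by edgeR), while Gabra6 of cerebellar granule cells had 1 count in 1 library. The 5 olfactory bulb genes summed to 5.41 to 7.05 CPM and 5.30 to 9.12 CPM, and Omp and Tbx21 did not pass the filter. The part of these other cell types in the values of the 8 genes was not tested.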

How the data were processed

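RNA from 1 forebrain hemisphere per mouse was read by QuantSeq 3′ mRNA-Seq, which sequences the end of polyadenylated transcripts. Bowtie2 was used by the authors for the reads, 75 bp and single-end, and they deposited raw counts of unique and multiple alignments per gene symbol from bedtools, on mm10 per the processing notes. The annotation, the strand setting and the versions are not given in the sources used here. Multiple alignments let near-identical genes share counts. No molecular identifiers were counted, so counting error understates technical error, and 3 libraries per group cannot give a two-sided exact permutation p below 0.1 for a single value.

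Genes with a mean log2(quantile-normalized count + 1) of at least 2 were fitted with TMM scaling and the quasi-likelihood test of edgeR 4.0.16 (R 4.3.3), without a replicate term. Standard errors are the log2 fold change over the square root of F. The 44 entries repeating a symbol stayed separate. The fit was tested on simulated data. Alternatives used DESeq2 1.42.0, limma 3.58.1 on quantile-normalized log2 counts, total-count scaling with and without the 45S ribosomal RNA row Rn45s (4.96% to 7.32% of counts), other filters, leaving out each library, and a block for the replicate number. The members and gene lists were chosen with earlier results of these data known. Named genes were the 8 members, up to 4 genes per list with an unadjusted p under 0.05 and the 2 with most counts, and the 3 nearest genes per member (prior count 2). Not all of these are printed, and others, such as Slc1a3, Gjb2, Serpina3n and Mt2, were named after their values were seen. Gene models are from GENCODE M21 on GRCm38, the genome of mm10. The metabolomics data of the study were not analysed here. Some genes of the lists are not reported here.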

Additional observations from a re-analysis of the deposited data

How the results depend on the processing

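The number of the 8 genes that had an unadjusted p under 0.05, 3 in the edgeR fit, was 1 with limma on quantile-normalized log2 counts, 5 without a filter on low counts and 5 with the replicate block, and it ran from 1 to 5 with each library left out, 1 without WAS replicate 1, WAS replicate 3, control replicate 2 or control replicate 3. The number that met both criteria of the study, the 1.5-fold limit and the limit on p, was 0 with 6 libraries and ran from 0 to 1, the 1 being Gfap without WAS replicate 2. In that analysis Gfap (0.77), Aqp4 (0.49) and S100b (0.39) passed an adjusted p of 0.05. For the 154 other astrocyte genes the number was 17 with limma against 28, and it ran from 11 to 49 with each library left out.

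The sign of Aldh1l1, at -0.0013, was positive with total-count scaling (0.034), without Rn45s (0.032), with edgeR's filter (0.00039), with the replicate block (0.0048) and without WAS replicate 2 (0.027), WAS replicate 3 (0.0079), control replicate 1 (0.085) or control replicate 2 (0.019), with a range from -0.10 to 0.085 over the analyses with 1 library left out. Sox9 was negative without WAS replicate 3 (-0.068) or control replicate 2 (-0.0077) and reached 0.12. The cause was not tested. Gfap, Aqp4, S100b, Gja1, Gjb6 and Aldoc stayed above 0 in all 13 alternatives. The mean summed CPM of the control libraries was 1539 without Rn45s against 1445, since the total is then smaller. TMM scaling of that sum was chosen after seeing the data.

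Deviations of same-numbered libraries correlated at 0.066 to 0.087, under the 0.1 set for pairing, so the numbers were not taken to pair the mice, although each of the 6 libraries correlated best with its own number. With the replicate block, 1428 genes had an unadjusted p under 0.05 against 1104, and 49 an adjusted p under 0.05 against 0, none of them among the 8. Of the other astrocyte genes, 38 then had an unadjusted p under 0.05 against 28, and 4 an adjusted p under 0.05. Gfap was then at 0.47 (unadjusted p = 0.000634) and Gjb6 at 0.32 (unadjusted p = 0.00619) in edgeR. Depth limited Aldh1l1 most, with 76 to 107 counts per library.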
